A study of Homo sapiens with 18 samples.

Results

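OTX1, OTX2, GBX1 and GBX2 are homeobox genes that mark either side of the border between midbrain and hindbrain. They were chosen by symbol, and the 4 genes had 4 of the 37550 rows in the table of gene abundances. All 4 were among the 17033 genes tested. Abundance was given as TPM, a relative unit scaled by transcript length, so levels can be set side by side between genes. The cells were H1, an established wild-type line of human pluripotent stem cells, in 18 poly-A RNA libraries, with 2 biological replicates in each of 9 groups. Undifferentiated cells (hPSC) were taken at day 0. At day 2 neural ectoderm of anterior type (aNE) or of posterior type (pNE) was collected. Cells of each origin were then kept until day 4 in forebrain medium (aNE_T, pNE_T), midbrain medium (aNE_M, pNE_M) or hindbrain medium (aNE_H, pNE_H).

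Every differentiated group had passed through a day-1 ectoderm medium with the MEK inhibitor trametinib at 250 nM. On day 2 all of them received A8301 at 1 µM and LDN193189 at 100 nM, which block TGF-beta and BMP receptors. The aNE medium added C59 at 1 µM, an inhibitor of WNT secretion. The pNE medium instead added FGF2 at 20 ng/mL, the retinoid agonist TTNPB at 50 nM, and XAV939 at 1 µM, an inhibitor of WNT signalling inside the cell. Plating density was 37500 cells per cm2 in both day-2 groups. In groups carried to day 4 it was 75000 for aNE and 150000 for pNE, so effects of origin and of density at day 4 cannot be told apart. In comparisons of day 4 with day 2, effects of day, medium and density cannot be told apart either. What the day-4 media contained is not used here.

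OTX proteins bind DNA through a paired-like homeodomain and are needed to form the forebrain and midbrain. GBX proteins are repressors of another homeodomain class, and GBX2 is needed for the anterior hindbrain. In the embryo OTX2 and GBX2 repress each other. The line where their domains meet sets the isthmus, a signalling centre that releases FGF8 and patterns the tissue on both sides. OTX2 is also active in the early epiblast and in pluripotent cells before any brain region exists.

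In the RefSeq annotation of GRCh38.p14, OTX2 lies on chromosome 14 from 56799905 to 56810479 and GBX2 on chromosome 2 from 236161340 to 236168386. OTX1 lies on chromosome 2 from 63049735 to 63057831 and GBX1 on chromosome 7 from 151148009 to 151167694. OTX2 had 2 start regions in the RefSeq promoter table and the other genes had 1 each. The gene-level values do not separate transcripts from the 2 OTX2 starts. The 250 bases before the outer OTX2 start and before the GBX2 start are shown because the results turn on these genes. Capitals mark CG pairs, and both are read 5′ to 3′ on the minus strand, at chr14:56810480-56810729 and chr2:236168387-236168636:
OTX2: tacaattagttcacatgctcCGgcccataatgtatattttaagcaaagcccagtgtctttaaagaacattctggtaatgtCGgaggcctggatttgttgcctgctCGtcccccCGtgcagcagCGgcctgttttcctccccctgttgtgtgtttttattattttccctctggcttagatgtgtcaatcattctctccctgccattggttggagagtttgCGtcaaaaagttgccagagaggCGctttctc
GBX2: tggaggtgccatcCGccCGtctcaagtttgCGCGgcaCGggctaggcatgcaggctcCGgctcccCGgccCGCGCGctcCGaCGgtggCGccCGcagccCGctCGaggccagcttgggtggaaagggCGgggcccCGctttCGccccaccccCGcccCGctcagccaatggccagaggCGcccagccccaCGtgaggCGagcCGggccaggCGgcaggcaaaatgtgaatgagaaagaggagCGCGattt

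The OTX2 sequence held 7 CG pairs and 47.2% G or C, and the one before the inner OTX2 start held 4 and 50.0%. GBX2 and GBX1 had 28 CG pairs each and OTX1 had 33, beside a median of 11.0 over 35116 promoter windows. Thus the OTX2 windows were below the median and the other members' windows above it. The OTX-type motif TAATCC, the GBX-type motif TAATTA and the nuclear receptor half-site AGGTCA were searched on both strands in windows of 300 bases that reach past the start. No member window held any of them, against 6.36%, 4.84% and 13.8% of all windows. These windows do not cover distant enhancers.

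Markers of the labelled stages were checked first. The summed TPM of 6 pluripotency markers lay between 4275 and 4293 in hPSC, between 416 and 508 at day 2 and between 69.4 and 118 at day 4. The sum of 6 neural markers was between 289 and 295 in hPSC and between 417 and 1455 in the other libraries, most of it from SOX2, NES and CDH2. From day 2 to day 4, however, 4 of the 6 neural markers fell and none rose in aNE_M (median -2.27) and in aNE_H (median -2.06). SOX2, a factor of both pluripotent and neural cells, averaged 191 TPM in hPSC, 71.8 TPM in aNE_M, 88.8 TPM in aNE_H, 115 TPM in pNE_M and 93.9 TPM in pNE_H. The part of these marker changes in the OTX and GBX levels was not tested. Replicates of a group had r = 0.982 to 0.987 across genes, which are not independent. Read depth cannot be recovered from TPM.

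OTX2 was the gene of anterior cells, and it was not lost at once in posterior cells. It was at 26.1 and 28.5 TPM in the hPSC libraries. In aNE it stood at 203 and 214 TPM, and in pNE at 28.3 and 26.6 TPM. The rise in aNE set it far above hPSC, whereas the pNE libraries overlapped hPSC. At day 4 it was at 71.0 and 62.7 TPM in aNE_T, 136 and 162 TPM in aNE_M, and 25.2 and 27.7 TPM in aNE_H. In pNE-derived cells it was at 0.988 and 0.634 TPM in pNE_T, 4.30 and 5.38 TPM in pNE_M, and 1.37 and 0.908 TPM in pNE_H. All 6 aNE-derived libraries were above all 6 pNE-derived ones. In order of mean level the groups ran aNE, aNE_M, aNE_T, pNE, hPSC, aNE_H, pNE_M, pNE_H and pNE_T. The neighbours pNE and hPSC, hPSC and aNE_H, and pNE_H and pNE_T overlapped, and the other neighbours did not. In cultures of many cells, fewer OTX2-positive cells and less OTX2 RNA per cell cannot be told apart.

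GBX2 followed a different course. It was at 2.75 and 2.81 TPM in hPSC and at 1.04 and 1.05 TPM in aNE. In pNE it reached 172 and 215.9 TPM, the highest level of any group. At day 4 it was present in every group, at 29.3 and 30.7 TPM in aNE_T, 16.2 and 9.67 TPM in aNE_M, and 91.9 and 88.0 TPM in aNE_H. In pNE-derived cells it was at 38.4 and 33.9 TPM in pNE_T, 5.22 and 6.44 TPM in pNE_M, and 33.1 and 24.8 TPM in pNE_H. Thus the day-4 group with the most GBX2 was of anterior origin. The order of means was pNE, aNE_H, pNE_T, aNE_T, pNE_H, aNE_M, pNE_M, hPSC and aNE, and only the neighbours aNE_T and pNE_H overlapped.

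**Figure D1:**
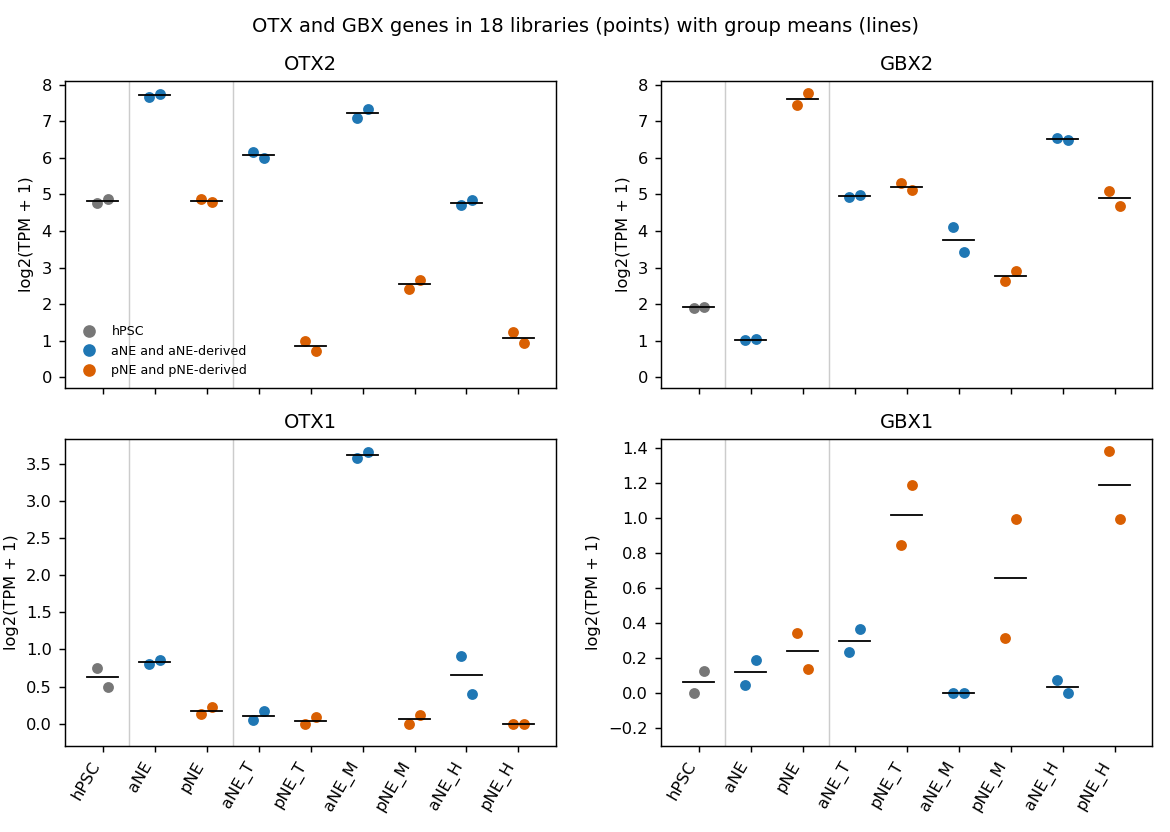
Level of OTX2, GBX2, OTX1 and GBX1 on the scale log2(TPM + 1) in each of the 18 libraries (points) of 9 groups, with the mean of the 2 libraries (lines) and a separate vertical scale in each panel. OTX2 is higher in every aNE-derived library than in any pNE-derived one, GBX2 is highest in pNE, and OTX1 stands out in aNE_M alone.

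At day 2 the pair separated the origins in opposite directions. A gene was called changed at a Benjamini-Hochberg adjusted p under 0.05 with an absolute log2 difference of at least 1, in a limma fit of log2(TPM + 1) to all 18 libraries. In aNE minus hPSC, 13.5% of genes were called and 1 of the 4 members, OTX2, which rose by 2.89 ± 0.14 (SE, adjusted p = 6.17e-09). GBX2 changed by -0.89 ± 0.20 there (adjusted p = 0.00289), under the fold threshold, and was called with a pseudocount of 0.1, at -1.33. In pNE minus hPSC, 12.9% were called and again 1 member, GBX2, which rose by 5.68 ± 0.20 (adjusted p = 2.30e-10). OTX2 differed by 0.01 ± 0.14 (adjusted p = 0.987). These comparisons share the hPSC libraries.

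In pNE minus aNE, 3.85% of genes were called, and 2 of the 4 members. GBX2 was higher by 6.56 ± 0.20 (adjusted p = 2.89e-10), the second largest absolute difference among all tested genes, at rank 2. OTX2 differed by -2.88 ± 0.14 (adjusted p = 2.41e-08), at rank 50. OTX1 differed by -0.65 ± 0.20 (adjusted p = 0.0439), under the fold threshold, and GBX1 by 0.12 ± 0.24 (adjusted p = 0.82).

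By day 4, OTX2 still separated the origins in each medium, whereas GBX2 did so in the opposite direction to day 2 or not at all. In the forebrain medium 7.77% of genes were called between pNE_T and aNE_T, and among members OTX2 alone. OTX2 differed by -5.23 ± 0.14 (adjusted p = 3.61e-11) and GBX2 by 0.26 ± 0.20 (adjusted p = 0.418). In the midbrain medium 5.74% were called and 2 members, OTX2 at -4.69 ± 0.14 (adjusted p = 1.63e-10) and OTX1. OTX1 entered the test only through the aNE_M libraries. Its place in this and later member counts with aNE_M is therefore a description. GBX2 differed by -0.99 ± 0.20 (adjusted p = 0.00315), at the edge of the fold threshold. It was called at -1.34 without aNE_M replicate 2 and at -1.12 without pNE_M replicate 2, and was -0.65 without aNE_M replicate 1. In the hindbrain medium 6.83% were called and 3 members, with GBX1 given as a description only. OTX2 differed by -3.69 ± 0.14 (adjusted p = 1.33e-09), GBX2 by -1.62 ± 0.20 (adjusted p = 5.26e-05) and GBX1 by 1.15 ± 0.24. The GBX1 call was favoured by the filter, which GBX1 passed through pNE_H replicate 1 and pNE_T replicate 2 only. It was lost without pNE_H replicate 1, at 0.95, and in a fit of the 4 libraries compared, at an adjusted p of 0.0618. GBX2 was therefore lower in pNE_H than in aNE_H, with no overlap of libraries.

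**Figure D2:**
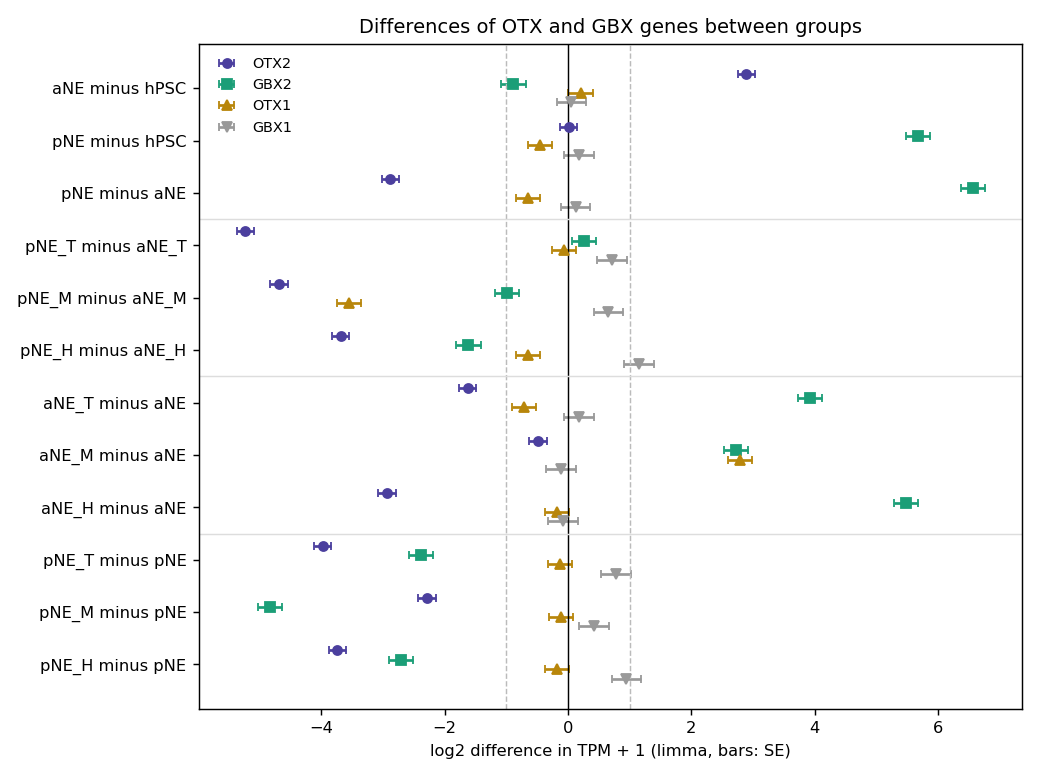
Log2 difference in TPM + 1 (horizontal axis) of each member in 12 comparisons of groups, with SE from limma as bars and dashed lines at a log2 difference of 1 in either direction. OTX2 lies to the left in all 4 comparisons of pNE or pNE-derived with aNE or aNE-derived cells, while GBX2 lies far to the right at day 2 and between -1.62 and 0.26 at day 4.

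From day 2 to day 4 the pair moved differently by origin. Plating density differed between these days as well, and its part cannot be told apart. GBX2 rose in aNE-derived cells in every medium and fell in pNE-derived cells in every medium, and OTX2 was below its day-2 level in all 6 groups, in 5 of them past the fold threshold. In aNE_T minus aNE, 9.03% of genes were called and 2 members. GBX2 rose by 3.92 ± 0.20 (adjusted p = 1.29e-08) and OTX2 fell by 1.63 ± 0.14 (adjusted p = 2.04e-06). In aNE_M minus aNE, 12% were called and 2 members, GBX2 with a rise of 2.73 ± 0.20 (adjusted p = 2.19e-07) and OTX1. OTX2 changed by -0.49 ± 0.14 in that medium (adjusted p = 0.0168), short of the fold threshold. In aNE_H minus aNE, 10.1% were called and 2 members. GBX2 rose by 5.47 ± 0.20 (adjusted p = 5.86e-10), the fifth largest absolute difference, at rank 5, and OTX2 fell by 2.94 ± 0.14 (adjusted p = 8.22e-09).

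In pNE-derived cells both genes declined together. In pNE_T minus pNE, 10.2% of genes were called and 2 members, with OTX2 at -3.98 ± 0.14 (adjusted p = 5.96e-10) and GBX2 at -2.39 ± 0.20 (adjusted p = 1.12e-06). In pNE_M minus pNE, 12.7% were called and the same pair, with GBX2 at -4.83 ± 0.20 (adjusted p = 1.03e-09) and OTX2 at -2.29 ± 0.14 (adjusted p = 5.18e-08). In pNE_H minus pNE, 12.3% were called and this pair again, with OTX2 at -3.74 ± 0.14 (adjusted p = 9.80e-10) and GBX2 at -2.71 ± 0.20 (adjusted p = 2.47e-07). The 3 comparisons of an origin share its day-2 libraries.

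Whether the origins changed differently was tested as an interaction, the change of pNE-derived minus that of aNE-derived cells. GBX2 had -6.31 ± 0.28 in the forebrain medium (adjusted p = 1.06e-08), where 7.14% of genes and 2 members were called. It had -7.56 ± 0.28 in the midbrain medium (adjusted p = 2.48e-09), with 7.02% of genes and 3 members called, OTX1 among them. In the hindbrain medium it had -8.18 ± 0.28 (adjusted p = 2.43e-09), with 7.83% of genes and 1 member called. In the midbrain and hindbrain media no tested gene had a larger absolute interaction than GBX2, which stood at rank 1. OTX2 was called in the forebrain medium at -2.35 ± 0.20 (adjusted p = 3.85e-06) and in the midbrain medium at -1.80 ± 0.20 (adjusted p = 4.10e-05). In the hindbrain medium it had -0.80 ± 0.20 (adjusted p = 0.0148) and was called there with a pseudocount of 0.1, at -1.52. All 3 interactions use the same 4 day-2 libraries, in which GBX2 differed most.

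The media ordered the pair alike in part. Midbrain medium gave the lowest GBX2 and the highest OTX2 of the 3 media in cells of either origin. In aNE_M minus aNE_T, 10.1% of genes were called and 3 members, OTX2 at 1.14 ± 0.14 (adjusted p = 3.78e-05), GBX2 at -1.19 ± 0.20 (adjusted p = 4.06e-04) and OTX1. This GBX2 call rested on the spread of all groups and on 1 library: it had an adjusted p of 0.0691 in a fit of the 4 libraries compared, and -0.85 without aNE_M replicate 2. In pNE_M minus pNE_T, 8.60% were called and 2 members, OTX2 at 1.69 ± 0.14 (adjusted p = 1.29e-06) and GBX2 at -2.44 ± 0.20 (adjusted p = 8.62e-07).

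Between hindbrain and forebrain medium, the pair was called in aNE-derived cells only. In aNE_H minus aNE_T, 6.60% of genes were called and 2 members, GBX2 at 1.55 ± 0.20 (adjusted p = 7.38e-05) and OTX2 at -1.31 ± 0.14 (adjusted p = 2.14e-05). In pNE_H minus pNE_T, 5.03% were called and none of the 4 members. GBX2 was at -0.32 ± 0.20 (adjusted p = 0.315) and OTX2 at 0.24 ± 0.14 (adjusted p = 0.294) by limma. OTX2 was at most 1.37 TPM in these pNE-derived libraries, near the 1 TPM added, so it had little room to fall. The OTX2 interaction of hindbrain minus forebrain medium has the same limit. The interaction of hindbrain minus forebrain medium with origin called 5.37% of genes and 2 members, GBX2 at -1.87 ± 0.28 (adjusted p = 7.19e-04) and OTX2 at 1.55 ± 0.20 (adjusted p = 2.70e-04). The interaction of midbrain minus forebrain medium called 7.63% of genes and 2 members, GBX2 at -1.25 ± 0.28 (adjusted p = 0.00869) and OTX1. The GBX2 value was -0.91 without aNE_M replicate 1 and then not called, and a fit of the 8 libraries compared gave an adjusted p of 0.0686. OTX2 had 0.55 ± 0.20 (adjusted p = 0.103) in that interaction and was called with a pseudocount of 0.1, at 1.30.

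Between hindbrain and midbrain media, aNE_H minus aNE_M called 4.92% of genes and 3 members, OTX1 among them. GBX2 was at 2.75 ± 0.20 (adjusted p = 5.63e-07), with an adjusted p of 0.054 in a fit of the 4 libraries compared, and OTX2 at -2.45 ± 0.14 (adjusted p = 7.94e-08). In pNE_H minus pNE_M, 5.99% were called and 2 members, GBX2 at 2.12 ± 0.20 (adjusted p = 5.64e-06) and OTX2 at -1.45 ± 0.14 (adjusted p = 9.34e-06).

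The ratio of OTX2 to GBX2 puts these courses on 1 scale. OTX2 was 195 and 203 times GBX2 in the aNE libraries, 8.42 and 16.7 times in aNE_M, 9.46 and 10.2 times in hPSC, and 2.42 and 2.04 times in aNE_T. In the other groups GBX2 was the higher of the pair. It was 1.22 and 1.20 times OTX2 in pNE_M, 3.65 and 3.18 times in aNE_H, 6.07 and 8.12 times in pNE, 24.1 and 27.4 times in pNE_H, and 38.8 and 53.4 times in pNE_T. In these plain ratios hPSC lay within the range of aNE_M. With 1 TPM added to each gene, the log2 ratios of hPSC (2.85 and 2.95) were just under those of aNE_M (2.998 and 3.93), and no other neighbouring groups overlapped on either scale. Cells of anterior origin in hindbrain medium were thus on the GBX2 side, aNE_T carried both genes at similar, substantial levels, and pNE_M had little of either.

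**Figure D3:**
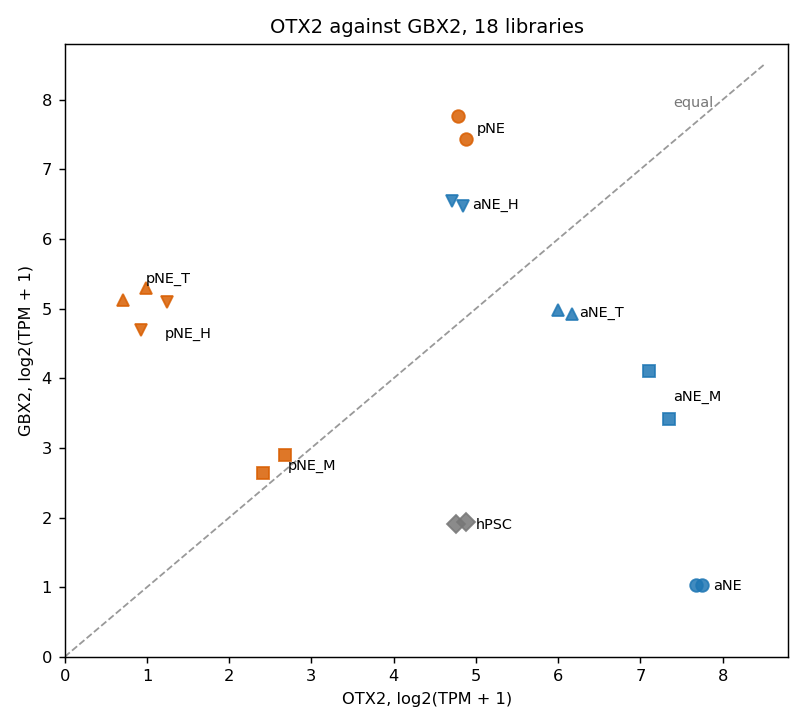
GBX2 (vertical) against OTX2 (horizontal), both as log2(TPM + 1), in 18 libraries, with hPSC in grey, aNE and aNE-derived cells in blue, pNE and pNE-derived cells in orange, and a dashed line of equal level. Day-2 groups are circles and forebrain, midbrain and hindbrain media are upward triangles, squares and downward triangles. The aNE_H libraries lie above the line with pNE, and the pNE_M libraries lie close to it.

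As the log2 ratio, with 1 TPM added to each gene, the day-2 difference pNE minus aNE was -9.45, from 6.68 ± 0.046 in aNE to -2.77 ± 0.29 in pNE (SD, n = 2). An exact permutation test of 2 libraries against 2 cannot go below p = 0.333, which is what it gave, two-sided. At day 4 the mean difference between origins was -3.75. The exact two-sided permutation test with origins exchanged within each medium gave p = 0.00926, the smallest it allows, with the ratio lower in 6 of 6 pNE-derived libraries than in either aNE-derived library of the same medium. The exact test with origins exchanged over all 12 libraries gave p = 0.0195. By medium the difference was -5.49 in forebrain, -3.69 in midbrain and -2.07 in hindbrain medium.

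OTX1, the paralogue of OTX2 with a later role in cortex and midbrain, was nearly confined in these libraries to aNE_M. It was at 10.9 and 11.6 TPM there and at most 0.878 TPM in any of the other 16 libraries. Both pNE_H libraries, pNE_T replicate 1 and pNE_M replicate 1 listed it at 0. It entered the test only through the aNE_M libraries, since no other library reached 1 TPM, so its calls in comparisons with aNE_M are given as a description, without p-values. On the log2 scale it was 2.79 higher in aNE_M than in aNE and 3.51 higher than in aNE_T. Its difference was -2.96 in aNE_H minus aNE_M and -3.55 in pNE_M minus aNE_M. The interactions of origin with midbrain medium were -2.90 from day 2 and -3.49 against forebrain medium. In cells of posterior origin OTX1 was at 0 and 0.0865 TPM in pNE_M, beside 0.0971 and 0.163 TPM in pNE.

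Markers of mesendoderm, an early lineage in which OTX2 is also known to act, had their highest summed level in the same group as OTX1. Of 7 such markers, the summed TPM was 97.3 and 117 in the aNE_M libraries and between 0.831 and 16.5 in all other libraries. The next highest were the pNE_M libraries, at 15.6 and 16.5, against 3.77 and 4.73 in pNE. MIXL1 made up most of the aNE_M sum, at a mean of 86.5 TPM, with EOMES at 16.5 TPM, while SOX17 was listed at 0 in both aNE_M libraries. Not every marker peaked in aNE_M. FOXA2 and GATA6 averaged 0.0812 and 0.150 TPM there, against 5.18 and 4.35 TPM in pNE_T, their highest group. SOX17 was highest in pNE_H and TBX6 in hPSC. Of the 6 tested, 3 were called higher in aNE_M than in aNE (TBXT, MIXL1 and EOMES) and none lower. In pNE_M, where OTX1 was low, 2 were called higher than in pNE and 1 lower. MIXL1 was there at 12.2 and 10.9 TPM and TBXT at 1.21 and 1.94 TPM, so the markers and OTX1 did not move together in every group. Their part in the OTX1 level was not tested.

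GBX1, the paralogue of GBX2, stayed low everywhere. Its highest values were 1.61 and 0.988 TPM in pNE_H, 0.796 and 1.28 TPM in pNE_T, and 0.245 and 0.992 TPM in pNE_M. Every other library was at or below 0.290 TPM, and both aNE_M libraries listed it at 0. The lowest pNE_M library overlapped aNE_T. GBX1 entered the test only through libraries of pNE_H and pNE_T, so its differences that involve these groups are a description. Its single call in the 23 comparisons was the one between pNE_H and aNE_H. The difference in forebrain medium was 0.72 ± 0.24 and was not called. In midbrain medium it was 0.65 ± 0.24 (adjusted p = 0.0897), and was called with a pseudocount of 0.1, at 2.62.

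Close relatives of the OTX genes bear the same type of homeodomain. Of 11 names looked for, 9 had a row and 4 were tested. GSC, a repressor of the organizer and anterior midline, averaged 29.4 TPM for aNE against 4.59 TPM for pNE, and both hPSC libraries listed it at 0. It rose in aNE by 4.92 ± 0.23 (adjusted p = 4.58e-09) and fell in all 6 day-4 groups against their origin. CRX, the photoreceptor member of the OTX family, was under 0.35 TPM in every group mean, and the pseudogenes OTX2P1 and OTX2P2 were listed at 0 in all libraries.

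Other genes of the 2 territories were followed through lists drawn up for this purpose. Of 9 forebrain and midbrain factors of the OTX territory, 7 were tested, and 6 were lower in pNE than in aNE, with a median of -1.65 beside -0.01 over all genes. In the day-4 comparisons of origin 7 were lower in forebrain medium (median -3.94), 6 in hindbrain medium (median -1.93) and 3 in midbrain medium (median -0.14). In aNE_M against aNE, however, all 7 tested factors of this list (HESX1, SIX3, SIX6, RAX, LHX5, FEZF1 and FEZF2, which are forebrain genes) fell (median -4.93), while OTX2 stayed at 136 and 162 TPM. HESX1, a repressor of the early forebrain, was at 105 and 118 TPM in the aNE libraries and at 1.61 and 2.08 TPM in the aNE_M libraries. It fell by 5.31 ± 0.24 (adjusted p = 2.75e-09) in that comparison. DMBX1, a midbrain factor of the list that was too low to be tested, had its highest values in aNE_M, at 0.870 and 1.14 TPM, beside 0.706 and 0.832 TPM in aNE.

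Of 9 anterior hindbrain factors, all tested, 6 were higher in pNE than in aNE (median 1.80) and none lower. At day 4 the numbers higher in pNE-derived cells were 9 in forebrain, 8 in midbrain and 9 in hindbrain medium, with medians of 5.57, 5.80 and 6.14. In aNE_H, where GBX2 was at 91.9 and 88.0 TPM, HOXA2, HOXA3, HOXB1, HOXB2 and HOXB3 were listed at 0 in both libraries.

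Isthmus genes, normally found where OTX2 and GBX2 meet, were called mainly in aNE_M. Of 10 tested, 8 rose in aNE_M against aNE (median 3.50), 3 in aNE_H (median 0.58), 2 in aNE_T (median 0.12), 3 in pNE_M (median 0.00), 3 in pNE_H (median 0.24) and none in pNE_T (median -0.02), each against its own origin. None fell in any of these comparisons. Of all genes, 12% were called in aNE_M minus aNE, in either direction. EN1, EN2 and CNPY1 reached 1 TPM only in the aNE_M libraries, and PAX8 only in the pNE_H libraries. These genes entered the test only through the group in which they were high. Their part in the aNE_M and pNE_H counts is therefore a description. WNT1, also on the list, was too low to be tested. It was at 0 and 0.0258 TPM in aNE_M and averaged 0.323 TPM in aNE, its highest group. FGF8, the signal of the isthmus, was not among the genes that rose in aNE_M, at -0.57 ± 0.33 (adjusted p = 0.213). It was highest in aNE_T, at 71.2 TPM, where OTX2 and GBX2 were both present. Both were also present in aNE_M and pNE, where FGF8 averaged 2.46 and 0.751 TPM. The next highest group mean of FGF8 was in aNE_H, with libraries at 9.83 and 5.36 TPM. FGF8 is also a signal of the anterior forebrain margin. FGF17, its close relative in the isthmus, was at 80.2 TPM in aNE_M, 26.0 TPM in pNE_M and 7.01 TPM in aNE_H, and at most 1.43 TPM on average elsewhere.

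OTX2 and GBX2 proteins both recruit corepressors of the Groucho family. Of 5 listed genes of this family, TLE1 to TLE5, none was called between pNE and aNE, beside 3.85% of all genes. In forebrain, midbrain and hindbrain medium, 3, 3 and 1 were lower in pNE-derived cells (medians -1.36, -1.50 and -0.48). Of all genes, 7.77%, 5.74% and 6.83% were called there in either direction. TLE4, the member best known as a partner of both, averaged 16.3 TPM for hPSC, 88.2 TPM for aNE and 50.4 TPM for pNE. TLE4 rose over hPSC by 2.37 ± 0.085 with the aNE medium (adjusted p = 3.19e-10) and by 1.57 ± 0.085 with the pNE medium (adjusted p = 1.54e-08). At day 4 its group means ran from 30.2 TPM in pNE_M to 168 TPM in aNE_T.

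**Figure D4:**
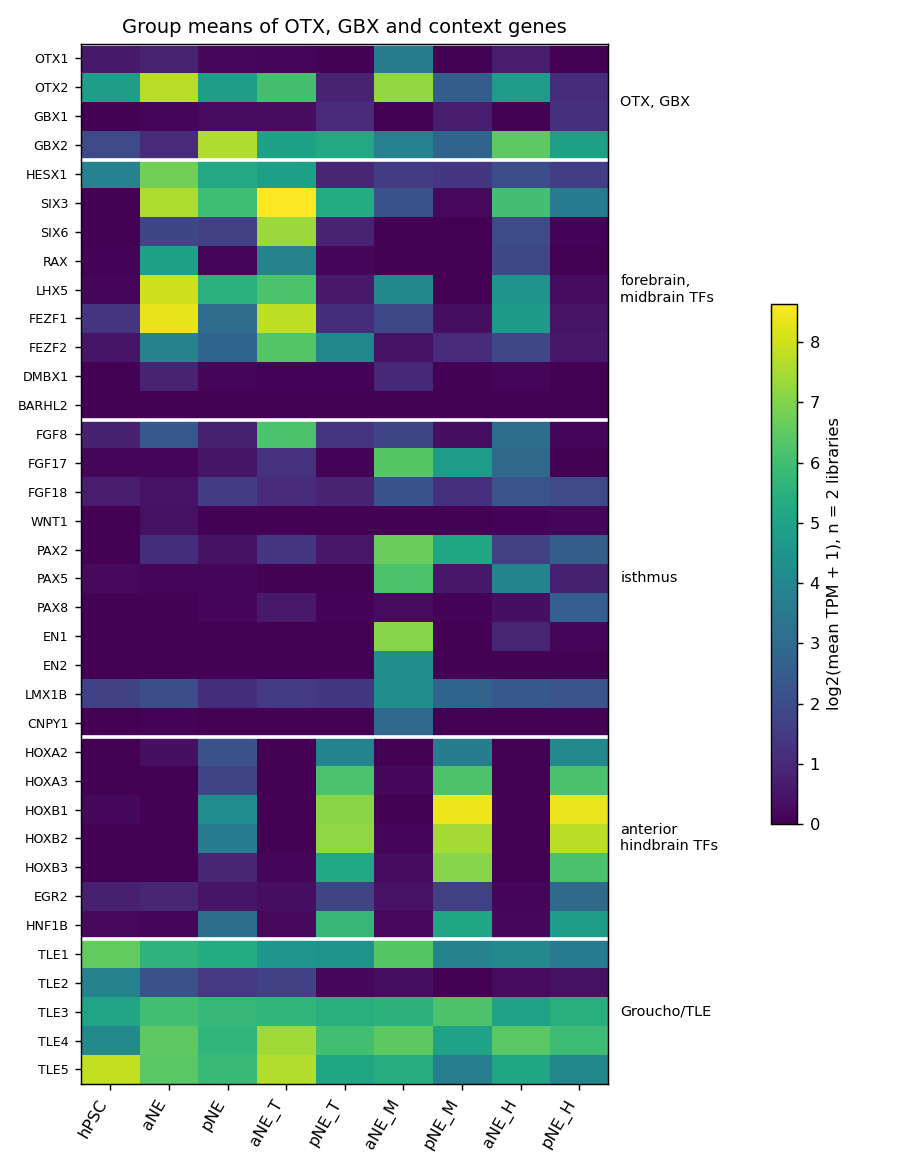
Group means as log2(mean TPM + 1) by colour, in 9 groups (columns), for the 4 members and the genes of the forebrain and midbrain, isthmus, anterior hindbrain and Groucho/TLE lists that are reported here (rows). Anterior hindbrain factors are bright mainly in columns of posterior origin, isthmus genes mainly in aNE_M, and the aNE_H column has bright GBX2 with dark HOX rows.

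Likeness to a member was described by Pearson's r over the 9 group means of log2(TPM + 1), among 5689 candidate genes. These points share their libraries, and no test applies. Closest to OTX2 were SLC6A8 (0.976), which encodes the creatine transporter, TLCD3B (0.949), CCDC177 (0.944), GTF2IRD1 (0.938) and CCDC88C (0.937). SLC6A8 averaged 298 TPM for aNE, its highest group, and 29.7 TPM for pNE_T, its lowest. The most opposite were RIN3 (-0.949), ITGA9 (-0.949), an integrin subunit, and OXR1 (-0.934). ITGA9 was at 47.2 TPM in pNE_H and 0.849 TPM in aNE.

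GBX2 had less similar neighbours, namely CNTNAP3P2 (0.907), CDC42EP1 (0.863), NFAT5 (0.849), LSP1 (0.833) and CNTNAP3B (0.820). CNTNAP3P2 and CNTNAP3B are near-identical copies of 1 family, so their values are uncertain. CDC42EP1, an effector of the small GTPase CDC42, averaged 52.7 TPM for pNE, its highest group, and 10.2 TPM for hPSC, its lowest. The most opposite were H4C2 (-0.854), SAMD1 (-0.845) and LINC01145 (-0.826). Over the 18 libraries, r was 0.562 for LSP1 and -0.449 for LINC01145, so their places rested on averaging. It was -0.657 for H4C2.

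Among the genes closest to OTX1 were TPBGL (0.987), STMN2 (0.976), FAM181B (0.973) and EN1 (0.967), all highest in aNE_M. STMN2, a neuronal microtubule protein, was at 21.4 TPM and FAM181B at 14.8 TPM there. Among the members themselves, r was -0.29 between OTX2 and GBX2, 0.58 between OTX1 and OTX2, -0.89 between OTX2 and GBX1 and 0.16 between GBX1 and GBX2. OTX2 and GBX2 were thus only weakly opposed across the groups. The r values of GBX1 rest on levels of at most 1.61 TPM in any library and are poorly determined.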

How the data were processed

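The authors deposited 1 table of TPM values per gene, with a column for each of the 18 libraries. The submitters' processing notes name Trim Galore and kallisto and the build hg38, without versions, and the annotation is not given in the sources used here. Deposited TPM keeps no read number, so no counting intervals are given. Values were analysed as log2(TPM + 1), with a pseudocount of 1, for the 17033 genes that reached 1 TPM in 2 or more libraries. The limma package (version 3.58.1, R 4.3.3) was fitted to the 18 libraries together, as 9 group means, which leaves 9 residual degrees of freedom, with a variance trend. It gave 18 pairwise comparisons and 5 interactions, and p-values were adjusted over all tested genes by the Benjamini-Hochberg method. The fit was tested on simulated data. The log2 ratio of OTX2 to GBX2 was tested by exact permutation.

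The members and lists were chosen with earlier results of these data known. Named genes were the members, list genes, and the genes most like a member with at least 5 TPM. Candidates for likeness had a symbol, 5 TPM in the highest group and a range of at least 1 on the log2 scale.

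Alternatives were a pseudocount of 0.1, quantile normalization, median-ratio scaling, no filter or one at 5 TPM, fits of only the compared libraries, a replicate block, calls by adjusted p alone, and leaving out each library. The cell medium compositions beyond day 2 were not used. Sequences came from RefSeq tables of GRCh38.p14, in which all 4 members matched. Some genes of the lists are not reported here.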

Additional observations from a re-analysis of the deposited data

Results flagged for a closer look

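For 3 members, the change in pNE-derived cells differed from the change in aNE-derived cells by an interaction in the limma fit, given here as pNE-derived minus aNE-derived on the log2 scale. From day 2 to day 4, GBX2 had -6.31 in forebrain, -7.56 in midbrain and -8.18 in hindbrain medium. It rose in each aNE-derived group and fell in each pNE-derived group. OTX2 had -2.35 in forebrain and -1.80 in midbrain medium, with falls of different size in the 2 origins in forebrain medium. OTX1 had -2.90 in midbrain medium. It passed the filter on low values only through the aNE_M libraries, in which it was high, so its interactions are a description and not a test.

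Between media at day 4, GBX2 had -1.25 for midbrain minus forebrain medium and -1.87 for hindbrain minus forebrain medium. OTX2 had 1.55 for hindbrain minus forebrain medium, and OTX1 had -3.49 for midbrain minus forebrain medium. Plating density differed with origin at day 4, so origin and density cannot be told apart in any of these.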

How the results depend on the processing

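Over 63 results and 782 recomputed values, 749 kept their side of the threshold, 9 lost their call, 24 gained one and 0 called results reversed. An uncalled result could change sign and still count as kept. OTX2 in pNE minus hPSC did so, at 0.01 in the main fit and -0.07 with median-ratio scaling. The day-2 ratio, with no p below 0.333, could not change side. Calling by adjusted p alone could add calls but not remove any. The filters, the replicate block and fits of only the compared libraries left the log2 differences as they were, so no reversal was possible there. The day-4 difference in the OTX2 to GBX2 log ratio between origins was -3.75, and lay between -3.90 and -3.60 without replicate 1 or replicate 2, where 8 arrangements allow no p below 0.25. With the replicate block, the exact test of this ratio gave p = 0.0313, the smallest its 64 arrangements allow, and in limma the block changed no member's call. Libraries of the same replicate number showed no shared deviation across groups, with r of deviations between -0.09 and 0.076 over 36 pairs of groups. Whether they were prepared together cannot be told from this. GBX2 in pNE_M minus aNE_M was -0.99, and was called at -1.10 with a pseudocount of 0.1, at -0.99 by adjusted p alone, and at up to -1.34 with 1 library left out (range -1.34 to -0.65). Calls by adjusted p alone raised the share of genes called to between 11.5% and 41.5%, and fits of only the compared libraries lowered it to between 2.08% and 12.8%, with over 1.5 times fewer calls in 4 of 23 comparisons. Scaling moved the median of all genes by at most 0.082, and quantile normalization the share of higher calls by up to 13.6 percentage points. GBX1 in pNE_H minus pNE was at 0.95 and was called by quantile normalization, at 1.13, and without pNE replicate 1 or pNE_H replicate 2, at 1.05 and 1.14. With a pseudocount of 0.1, OTX1 was called at -1.94 in pNE minus aNE, -2.67 in pNE_H minus aNE_H and -2.34 in aNE_T minus aNE. With 2 libraries per group and no read numbers, differences among values under about 1 TPM are poorly determined.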
